A study of Mus musculus with 2 samples.

Results

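The glycolysis enzymes described here are 10 mouse genes, Hk2, Aldoa, Tpi1, Gapdh, Pgk1, Pgam1, Eno1, Pkm, Ldha and Ldhb, taken by exact gene symbol from the 31053 genes of the count files. They match 11 rows, because the symbol Aldoa carries a second identifier that received 5 UMIs in the irradiated library and 7 in the control library. The transcripts were measured by single-cell RNA sequencing (10x Genomics) in LSK cells, the lineage-negative bone marrow fraction that carries Sca1 and c-Kit on its surface and contains blood stem cells and multipotent progenitors. The irradiated library came from C57BL/6J mice aged 6 to 8 weeks, at day 15 after 5 Gy of total body irradiation. The control library came from C57BL/6J mice of the same age range, labelled as control. There is 1 library in each group, and the sources used here do not state how many mice went into it, so no comparison below has a replicate or a p-value.

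Glycolysis splits glucose into pyruvate in the cytosol and yields ATP without oxygen. Lactate dehydrogenase then turns pyruvate into lactate and renews the NAD+ that the pathway consumes. Quiescent blood stem cells in the low-oxygen marrow are known for relying on glycolysis, under the influence of the hypoxia-inducible transcription factors, and cells that divide and differentiate draw more on mitochondrial respiration. The lactate dehydrogenase enzyme is assembled from A subunits (Ldha) and B subunits (Ldhb), and enzyme rich in A favours lactate formation while enzyme rich in B favours the use of lactate.

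After removal of barcodes with few UMIs, few genes or a high mitochondrial share, 5112 irradiated and 7189 control cells were kept. Sca1 (Ly6a) stood at 218 counts per 1000000 UMIs (CPM) in irradiated and 156 CPM in control cells, and Kit at 73.5 CPM in irradiated and 132 CPM in control cells, so both genes of the sort gate were detected. The libraries differed in depth and makeup. The median cell held 29615 UMIs in the irradiated library and 16084 in the control library, and the median mitochondrial share was 3.24% in irradiated and 4.38% in control cells. Neutrophil-primed cells made up 23.8% of irradiated and 3.06% of control cells, and HSC-like cells made up 4.85% of irradiated and 19.8% of control cells. The summed neutrophil-primed markers stood at 6559 CPM in irradiated and 1554 CPM in control cells, with none of the 9 at 0. The summed mature neutrophil markers went the other way, at 67.3 CPM in irradiated and 347 CPM in control cells. The libraries shared 16 barcode sequences, 11 of them among kept cells.

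Over all cells the enzymes moved apart into 1 gene that was much lower in the irradiated library and 9 with ratios above 0. Together the 10 genes gave 773037 of the kept UMIs in the irradiated library and 454251 in the control library, which is 0.475% of irradiated and 0.329% of control UMIs. Their summed level was 4750.1 CPM in irradiated and 3289 CPM in control cells, a log2 ratio of 0.53 with an exact 95% interval of 0.525 to 0.536. Each such interval covers counting error only. Only genes whose mean over the libraries reached 20 CPM were compared by size, and 10 of the 11 rows met this. A gene is called higher or lower below where its log2 ratio was at least 0.32 in size. Of these 10 members, 6 were higher in irradiated cells, where the background over all 5247 genes compared was 21.2%, and 1, Ldhb, was lower, where it was 20.4%. At 2-fold, 1 member was lower, Ldhb again, and 0 were higher, against backgrounds of 2.38% lower and 1.11% higher. The median log2 ratio was 0.46 over the 10 members and 0.02 over the 5247 genes.

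**Figure D1:**
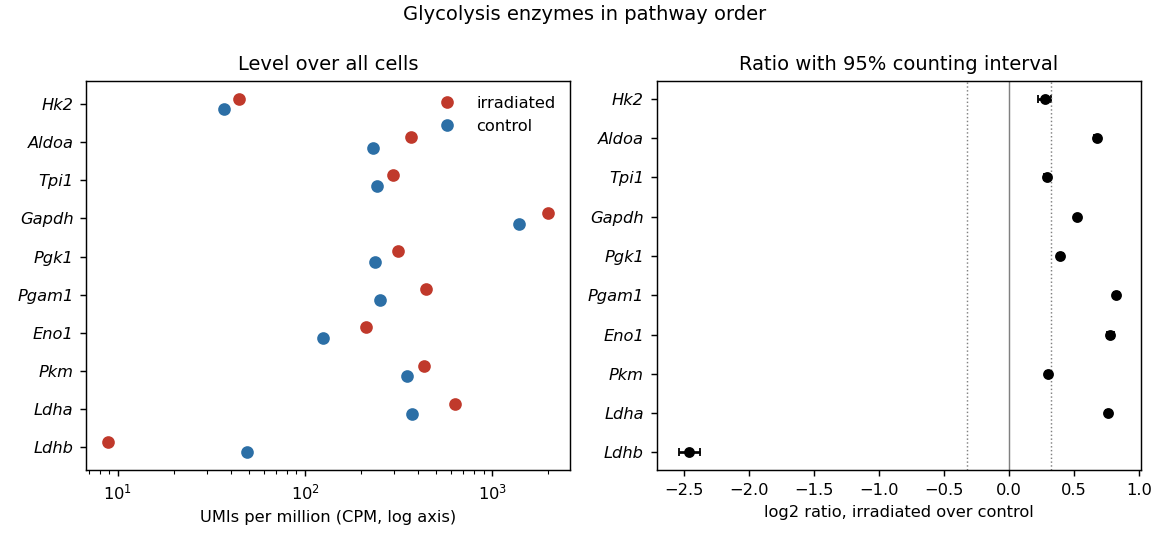
Level of each enzyme over all kept cells in CPM on a log axis (left; irradiated and control library as coloured points) and its log2 ratio of irradiated over control with the 95% counting interval (right), with genes in pathway order. Ldhb lies at -2.46, and the 9 other genes lie between 0.27 and 0.82.

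Hk2 encodes hexokinase 2, which phosphorylates glucose in the first step of the pathway (chromosome 6, 82725025 to 82774454, minus strand). All gene coordinates are those of GENCODE M21 on GRCm38. Hk2 stood at 44.5 CPM in irradiated and 36.8 CPM in control cells, a log2 ratio of 0.27 (0.22 to 0.33), which is below that threshold. Aldoa encodes the aldolase that cleaves fructose bisphosphate (chromosome 7, 126795234 to 126800751, minus strand). It was higher, at 368 CPM in irradiated and 231 CPM in control cells, a log2 ratio of 0.67 (0.65 to 0.69). Tpi1 encodes triosephosphate isomerase, which interconverts the products of that cleavage (chromosome 6, 124810586 to 124814296, minus strand). Its level was 295 CPM in irradiated and 241 CPM in control cells, a log2 ratio of 0.29 (0.27 to 0.31).

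Gapdh encodes the dehydrogenase that reduces NAD+ in the pathway (chromosome 6, 125161715 to 125166467, minus strand) and had the highest level of the members. It stood at 2000.2 CPM in irradiated and 1393 CPM in control cells, a log2 ratio of 0.52 (0.51 to 0.53), or 1.44-fold higher. Pgk1 encodes phosphoglycerate kinase, the first step that returns ATP (chromosome X, 106187100 to 106203699, plus strand). Its level was 313 CPM in irradiated and 238 CPM in control cells, a log2 ratio of 0.39 (0.37 to 0.41). Pgam1, the phosphoglycerate mutase gene (chromosome 19, 41911923 to 41918660, plus strand), had the highest ratio of the members. It stood at 444 CPM in irradiated and 250.5 CPM in control cells, a log2 ratio of 0.82 (0.81 to 0.84), or 1.77-fold higher, and ranked 5149 of 5247 genes from the lowest ratio.

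Eno1 encodes enolase, which forms phosphoenolpyruvate (chromosome 4, 150236721 to 150248879, plus strand). It was higher, at 213 CPM in irradiated and 124 CPM in control cells, a log2 ratio of 0.78 (0.75 to 0.80). Pkm encodes the pyruvate kinase of most tissues other than liver and red cells (chromosome 9, 59656368 to 59679375, plus strand). Its level was 430.3 CPM in irradiated and 350.3 CPM in control cells, a log2 ratio of 0.30 (0.28 to 0.31), below the threshold. The files do not separate the M1 and M2 forms of Pkm. In the annotation the opposite-strand genes Iffo1, Fam57b, Spsb2 and Gm17034 overlap Gapdh, Aldoa, Tpi1 and Hk2, and Eno1 has a near-identical copy, Eno1b, with 120 UMIs in irradiated and 59 UMIs in control cells. Whether the authors' counting used strand was not given in the sources used here.

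The lactate dehydrogenase genes went opposite ways. Ldha (chromosome 7, 46841475 to 46855627, plus strand) stood at 634 CPM in irradiated and 375 CPM in control cells, a log2 ratio of 0.76 (0.74 to 0.77), or 1.69-fold higher. Ldhb (chromosome 6, 142490249 to 142507957, minus strand) stood at 8.87 CPM in irradiated and 48.8 CPM in control cells, from 1444 irradiated and 6744 control UMIs. Its log2 ratio was -2.46 (-2.54 to -2.38), 5.50-fold lower, and ranked 5 of 5247 from the lowest. Of all UMIs of both genes, the Ldhb share was 1.38% (exact binomial 95% interval 1.31 to 1.45) in irradiated and 11.5% (11.3 to 11.8) in control cells.

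The promoters of both genes and of Pgk1 are shown because hypoxia-inducible factors are known to act on Ldha and Pgk1 through the core letters ACGTG or GCGTG, and because Ldha and Ldhb differed in direction. Each is the 250 bases before a RefSeq start site on GRCm38.p6, 5′ to 3′ on the gene's strand. Capitals mark matches to ACGTG or GCGTG on either strand (read as CACGT or CACGC on the opposite strand), with the E-box CACGTG that contains such a match also in capitals.
Ldha, chr7:46845554-46845803, plus strand: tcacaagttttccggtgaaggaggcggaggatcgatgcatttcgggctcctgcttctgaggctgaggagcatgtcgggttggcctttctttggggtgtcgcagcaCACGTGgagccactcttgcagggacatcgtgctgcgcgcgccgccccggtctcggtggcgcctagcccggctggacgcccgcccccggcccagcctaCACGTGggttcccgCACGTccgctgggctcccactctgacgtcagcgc
Ldhb, chr6:142507958-142508207, minus strand: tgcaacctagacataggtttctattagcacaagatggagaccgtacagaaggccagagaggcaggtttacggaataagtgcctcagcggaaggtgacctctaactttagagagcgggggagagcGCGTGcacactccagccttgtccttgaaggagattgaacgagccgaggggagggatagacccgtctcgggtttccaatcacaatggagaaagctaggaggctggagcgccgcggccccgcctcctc
Pgk1, chrX:106186850-106187099, plus strand: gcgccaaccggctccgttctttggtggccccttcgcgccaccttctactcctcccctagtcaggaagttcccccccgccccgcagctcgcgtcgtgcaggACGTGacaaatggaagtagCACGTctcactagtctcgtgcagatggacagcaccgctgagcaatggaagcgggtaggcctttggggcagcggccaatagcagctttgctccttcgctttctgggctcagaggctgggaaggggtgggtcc
The Ldha window shown held 5 ACGTG matches, 4 of them the overlapping strands of 2 CACGTG E-boxes, and no GCGTG. A second Ldha start site, with its window at chr7:46846832-46847081, held 0 ACGTG, no E-box and 1 GCGTG. The Ldhb window held 1 GCGTG match and no E-box, and the Pgk1 window held 2 ACGTG matches. Of the 16 RefSeq start sites of the members, 13 had either core in their window, and 9 of 10 genes had it in at least 1 window, Tpi1 being the exception. Windows of 2 pairs of sites overlap, in Eno1 and in Aldoa, and so share letters. Of 32851 mouse promoter windows of the same length, 38.6% held either core, 16.6% held ACGTG, 28.2% held GCGTG and 6.02% held CACGTG. Of 27025 genes, 41.5% had either core in at least 1 window. A match describes the letters and not the binding of a factor.

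The comparison was repeated within cells of the same class. Clusters were named from marker genes, and 4 named classes held at least 100 cells in each library: HSC-like (248 irradiated, 1421 control), lymphoid-primed (369 irradiated, 1281 control), megakaryocyte-primed (279 irradiated, 181 control) and neutrophil-primed (1216 irradiated, 220 control). A further 6 clusters of that size stayed unnamed and are given by their leading genes. The 10 enzymes and the other genes of their pathways were left out of the clustering.

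The Ldhb ratio was below 0 in all 10 classes and clusters, with log2 ratios between -2.41 and -0.97. In 8 of them Ldhb was called lower, and in neutrophil-primed cells and cluster 6 its mean was under 20 CPM, so it was not called. In HSC-like cells, where its level was highest in both libraries, it stood at 51.6 CPM in irradiated and 101.5 CPM in control cells (log2 -0.97, interval -1.21 to -0.75). Here the median depth was close between libraries, 12929 UMIs in irradiated and 11243 in control cells. In lymphoid-primed cells it stood at 8.02 CPM in irradiated and 42.6 CPM in control cells (log2 -2.41, -2.80 to -2.04).

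In megakaryocyte-primed cells Ldhb stood at 11.9 CPM in irradiated and 52.8 CPM in control cells (log2 -2.15, -2.59 to -1.72), at median depths of 17561 UMIs in irradiated and 16464 in control cells. In neutrophil-primed cells the level was low in both libraries, 7.49 CPM in irradiated and 15.96 CPM in control cells (log2 -1.09, -1.41 to -0.77). That class is 2 clusters, of which cluster 5 holds most of its irradiated cells (756 irradiated, 65 control) and cluster 9 most of its control cells (460 irradiated, 155 control). Cluster 5 also had the mature neutrophil markers S100a8, S100a9 and Lcn2 among its leading genes. Cluster 9 had the monocyte-primed markers Ccr2, Ly86 and Irf8 among its leading genes, beside the neutrophil-primed markers Ctsg, Mpo and Ms4a3. The Ldhb ratio was -1.67 in cluster 5 and -1.18 in cluster 9. In neutrophil-primed cells of 20000 to 30000 UMIs it was -0.11 (192 irradiated and 82 control cells), with 9.72 CPM in irradiated and 10.5 CPM in control cells and an interval of -0.87 to 0.69. In those of 30000 to 50000 UMIs it was -1.34 (-1.75 to -0.91; 702 irradiated and 96 control cells), with 7.31 CPM in irradiated and 18.5 CPM in control cells.

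The Ldhb share of lactate dehydrogenase UMIs was lower in irradiated cells of each named class too. It was 12.8% in irradiated and 27.7% in control HSC-like cells, and 2.00% in irradiated and 11.7% in control lymphoid-primed cells. It was 1.65% in irradiated and 8.77% in control megakaryocyte-primed cells, and 1.00% in irradiated and 2.51% in control neutrophil-primed cells. Among irradiated classes of at least 100 cells, erythroid-primed cells had the lowest Ldhb level, 12 UMIs in 464 cells (0.896 CPM), while Ldha there was 611 CPM. Droplet libraries carry free RNA, and this value is an upper limit on what free RNA gave those irradiated cells for Ldhb. The limit is looser in the control library. There erythroid-primed cells held 5 Ldhb UMIs in 41 cells (5.65 CPM) and B lineage cells 19 UMIs in 110 cells (7.91 CPM). Control neutrophil-primed cells stood at 15.96 CPM, and the part of free RNA in these levels was not tested.

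Among the levels of Ldhb in the classes and clusters with at least 100 cells of a library, HSC-like cells stood apart at the top of both orders, with no overlap of counting intervals with the next. In irradiated cells all below them, from cluster 2 at 17.7 CPM down to monocyte-primed cells at 4.55 CPM, overlapped each with its neighbour. Megakaryocyte-primed cells at 11.9 CPM, neutrophil-primed cells at 7.49 CPM and cluster 6 at 6.82 CPM lay within this run. At the low end, monocyte-primed and erythroid-primed cells did not overlap. In control cells the order ran from 101.5 CPM through cluster 2 at 65.7 CPM to neutrophil-primed cells at 15.96 CPM and B lineage cells at 7.91 CPM.

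The summed enzymes had a different order. Among classes and clusters of at least 100 cells they were highest in neutrophil-primed cells, at 6065 CPM in irradiated and 4846 CPM in control cells, and low in HSC-like cells, at 2951 CPM in irradiated and 2697 CPM in control cells. Monocyte-primed cells followed at 5655 CPM in the irradiated library, and erythroid-primed cells stood there at 2895 CPM, the lowest of the classes and clusters of at least 100 cells, with an interval that overlaps that of HSC-like cells. The erythroid-primed level was uneven across the pathway: Pgam1 stood at 74.6 CPM and Pkm at 58.0 CPM, the lowest of the 12 irradiated classes and clusters of at least 100 cells for both, while Ldha stood at 611 CPM. The red cell pyruvate kinase gene Pklr, which is outside the 10, had 221 UMIs in irradiated and 13 UMIs in control cells over all cells, and was singled out after its values were seen.

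In HSC-like cells the other enzymes differed little. Of 10 members compared, 2 were higher, Ldha and Hk2, against a background of 8.92%, and 1 was lower, Ldhb, against 9.44%. Ldha stood at 351 CPM in irradiated and 265 CPM in control cells (log2 0.40, 0.31 to 0.50). Hk2, higher here than in any other class or cluster of at least 100 cells in both libraries, stood at 88.3 CPM in irradiated and 59.0 CPM in control cells (log2 0.58, 0.39 to 0.77). The summed ratio was 0.13 (0.10 to 0.16), the median over the 10 members was 0.13, and the median over all genes compared in the class was 0.01.

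In lymphoid-primed cells 3 of 10 members were higher, Pgam1, Eno1 and Hk2, against a background of 9.76%, and 1 was lower, Ldhb, against 11.7%. Pgam1 stood at 252 CPM in irradiated and 193 CPM in control cells (log2 0.38, 0.31 to 0.46). The summed ratio was 0.21 (0.19 to 0.23). In lymphoid-primed cells of 10000 to 20000 UMIs it was 0.002, and in those of 20000 to 30000 UMIs it was 0.02, while Ldhb was at -1.69 and -2.41 in the same bins. Pgam1 and Eno1 were under the threshold in both bins, Pgam1 at 0.12 (-0.03 to 0.28) and 0.17, and Eno1 at 0.13 and 0.14, from the shallower to the deeper bin. Hk2 was past it in both, at 0.77 and 0.39. Ldha, at 0.29 in the class, stood at 0.11 (-0.02 to 0.23) in the shallower and -0.09 (-0.18 to -0.0003) in the deeper bin.

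Megakaryocyte-primed cells had the smallest summed ratio, 0.06 (0.03 to 0.09). Of 10 members 1 was higher, Ldha, against a background of 9.52%, and 1 was lower, Ldhb, against 15.7%. Ldha stood at 711 CPM in irradiated and 549 CPM in control cells (log2 0.37, 0.29 to 0.45). Pgam1, Pkm and Tpi1 lay below 0 with intervals that exclude it, at -0.27 (-0.43 to -0.12), -0.18 (-0.30 to -0.07) and -0.23 (-0.36 to -0.10), none of them reaching the threshold. In megakaryocyte-primed cells of 10000 to 20000 UMIs (156 irradiated, 121 control) the summed ratio was -0.01, and Ldhb stood at 7.49 CPM in irradiated and 57.1 CPM in control cells (log2 -2.93, -3.74 to -2.20).

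In neutrophil-primed cells Ldhb was under the level filter, and 3 of the 9 members compared were higher, Pkm, Eno1 and Aldoa, against a background of 12.3%, with 0 lower against 7.07%. Eno1 stood at 296 CPM in irradiated and 182 CPM in control cells (log2 0.70, 0.62 to 0.79). Aldoa stood at 489 CPM in irradiated and 335 CPM in control cells (log2 0.55, 0.48 to 0.61). The summed ratio was 0.32 (0.31 to 0.34) in the class, 0.19 in cluster 5 and 0.25 in cluster 9. Within the clusters Eno1 stood at 0.56 in cluster 5 and 0.50 in cluster 9, and Aldoa at 0.34 in cluster 5 and 0.44 in cluster 9. Pkm, at 0.37 in the class, was under the threshold in both, at 0.19 in cluster 5 and 0.315 in cluster 9. In neutrophil-primed cells of 20000 to 30000 UMIs the summed ratio was 0.20, and in those of 30000 to 50000 UMIs it was 0.21. From the shallower to the deeper bin Pkm stood at 0.41 and 0.33, and Eno1 at 0.38 and 0.56. Aldoa was under the threshold in the shallower bin, at 0.30, and past it in the deeper, at 0.51. Ldha, at 0.26 in the class, stood at -0.04 (-0.14 to 0.06) in the shallower and 0.12 (0.06 to 0.18) in the deeper bin.

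**Figure D2:**
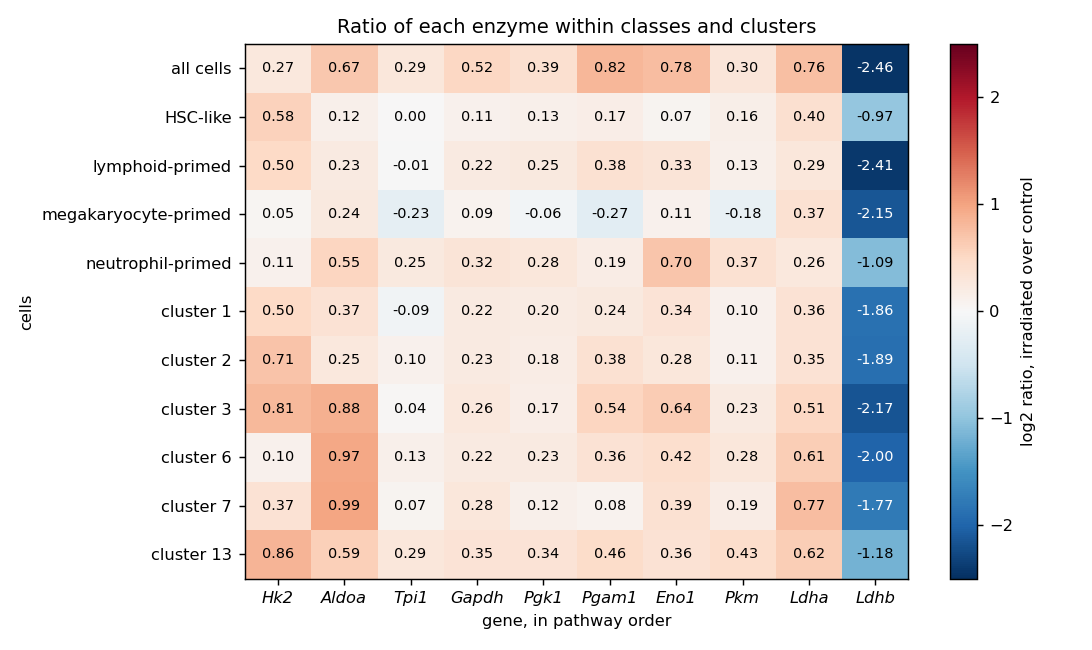
Log2 ratio of irradiated over control for each enzyme (columns, in pathway order) within each class and cluster (rows), as colour and printed value. The Ldhb column is negative throughout and the Ldha column positive throughout, between 0.26 and 0.77.

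The unnamed clusters gave summed ratios between 0.20 and 0.40. In cluster 1, with Ung and E2f1 among its leading genes, 4 of 10 members were higher (background 8.75%) and 1 was lower (background 11%). In cluster 2, led by Wfdc17, Cxcl2 and Ccl3, 3 of 10 were higher (background 10.5%) and 1 was lower (background 11.6%). In cluster 3, led by histone genes, 5 of 10 were higher (background 11.2%) and 1 was lower (background 12.3%).

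In cluster 6, led by the mitosis genes Nusap1 and Kif11, 4 of 9 members were higher (background 10.2%) and 0 were lower (background 10.7%). In cluster 7, where Pf4, a platelet chemokine gene, led mitosis genes, 4 of 10 were higher (background 11%) and 1 was lower (background 16.1%). In cluster 13, led by Hist1h2bc and Ccnb2, 8 of 10 were higher (background 14.4%) and 1 was lower (background 21%). Aldoa had its highest ratios in the clusters led by mitosis genes, with 232 CPM in irradiated and 117 CPM in control cells of cluster 7 (log2 0.99, 0.89 to 1.09). It stood at 223 CPM in irradiated and 114 CPM in control cells of cluster 6 (log2 0.97, 0.88 to 1.06).

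Across the 10 classes and clusters, Gapdh, Ldha, Eno1, Aldoa and Hk2 were above 0 in 10, Pgam1, Pkm and Pgk1 in 9, and Tpi1 in 7. Ldha reached the threshold in 8 of them, Eno1 and Hk2 in 7, Aldoa in 6, Pgam1 in 5, Pkm in 2, Gapdh and Pgk1 in 1 each, and Tpi1 in 0. In bins of cell depth Ldha was past the threshold in HSC-like cells (0.46 under 10000 UMIs, 0.35 from 10000 to 20000). It was past it in megakaryocyte-primed cells of 10000 to 20000 UMIs too (0.42). In lymphoid-primed and neutrophil-primed cells it was not, and lay below 0 from 20000 to 30000 UMIs. The Hk2 interval included 0 in megakaryocyte-primed (0.05, -0.28 to 0.38) and neutrophil-primed cells (0.11, -0.07 to 0.29). Hk2 stood at -0.26 (-0.53 to 0.01) in cluster 5, against 0.31 (0.06 to 0.57) in cluster 9. In megakaryocyte-primed cells of 10000 to 20000 UMIs it stood at -0.39 (-0.86 to 0.09). Gapdh, often used as a constant gene for scaling, ran from 0.09 in megakaryocyte-primed cells to 0.35 in cluster 13.

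The ratios over all cells were then recomputed with the class mix held at that of the control library. This gave a summed ratio of 0.22 (0.21 to 0.23), against 0.53 over all cells, and an Ldhb ratio of -1.54 (-1.67 to -1.40). With 30 neighbours taken over all cells in the clustering the summed ratio was 0.080. With depth bins held at their control shares it was 0.17, and with class and depth held together 0.14, while Ldhb was -1.91 and -1.40. Of the 9 genes above 0, Hk2 alone had a larger ratio with the class mix held than without, at 0.56 against 0.27. Tpi1 came to 0.02 (-0.01 to 0.06) with the class mix held, and to -0.04 with depth bins held, where Pkm came to -0.02. The class mix and depth thus moved with the summed ratio, and their part in it beyond these values was not tested.

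**Figure D3:**
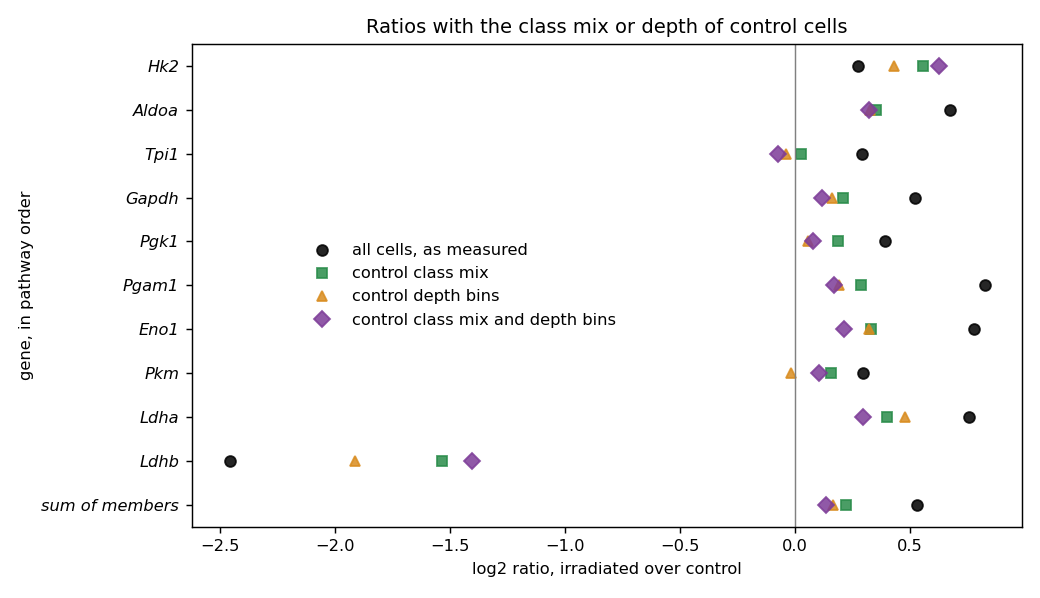
Log2 ratio of irradiated over control for each enzyme over all cells as measured, with the control class mix, with the control depth bins, and with both. The Ldhb points lie between -2.46 and -1.40, and the points of the other genes lie between -0.07 and 0.82.

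The summed ratio differed between bins of cell depth. Over all cells it was 0.12 in cells under 10000 UMIs, 0.06 from 10000 to 20000, 0.18 from 20000 to 30000, 0.41 from 30000 to 50000 and 0.41 above. The Ldhb ratio in the same bins was -1.97, -1.94, -1.69, -2.01 and -2.20.

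By cell cycle phase, called from expression in cells thinned to 5000 UMIs, G1 held 16.9% of irradiated and 43.8% of control cells, and G2M held 44.4% of irradiated and 22.1% of control cells. In G1 cells Ldhb stood at 20.3 CPM in irradiated and 74.8 CPM in control cells (log2 -1.88). It was -2.32 in S and -2.15 in G2M cells. The summed ratio was 0.28 in G1, 0.45 in S and 0.49 in G2M cells. Among HSC-like cells in G1 alone (202 irradiated, 1216 control), Ldhb stood at 55.1 CPM in irradiated and 104 CPM in control cells (log2 -0.92, -1.18 to -0.67), and Hk2 at 84.2 CPM in irradiated and 62.2 CPM in control cells (log2 0.44, 0.22 to 0.65).

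Values of single cells overlapped widely. Their spread includes the counting noise of 5000 UMIs per cell, which was not measured apart from differences between cells. After thinning to 5000 UMIs, with 59 irradiated and 66 control cells too shallow and left out, the median cell gave 0.42% of its UMIs to the 10 enzymes in the irradiated library and 0.30% in the control library. The 5th to 95th percentiles were 0.16% to 0.76% in irradiated and 0.14% to 0.52% in control cells. The HSC-like medians were 0.28% in irradiated and 0.26% in control cells, and the neutrophil-primed medians 0.58% in irradiated and 0.46% in control cells. In megakaryocyte-primed cells the medians were 0.32% in irradiated and 0.33% in control cells. Ldhb averaged 0.0542 UMIs per thinned irradiated cell and 0.299 UMIs per thinned control cell.

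**Figure D4:**
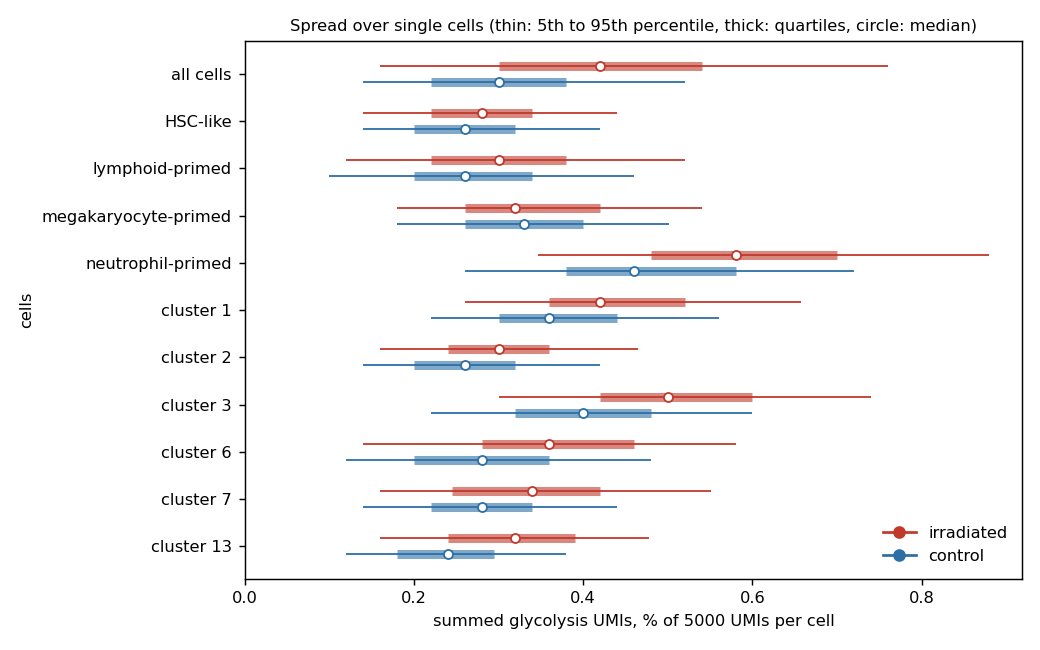
Share of 5000 UMIs per cell given to the 10 enzymes, in percent, within each class and cluster, for the irradiated and control library; thin lines span the 5th to 95th percentile, thick lines the quartiles, and circles mark medians. The spans include the counting noise of 5000 UMIs per cell, and those of the libraries overlap in every row.

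Across the 23 class-by-library profiles with at least 100 cells (12 irradiated, 11 control), the pairs among the 8 members other than Ldhb and Hk2 had Pearson r between 0.13 and 0.92, with a median of 0.65 over 28 pairs, on log2(CPM + 1). The 9 pairs with Ldhb ran from -0.65 (with Ldha) to 0.40 (with Hk2), and the 9 pairs with Hk2 had a median of 0.19. Profiles of a library share that library's depth and handling, so these are descriptions of the 23 profiles. The genes outside the 10 most like their sum were Ddost (0.94), Pdia6, Manf, P4hb and Pdia3 (0.93 each) among 5237 genes. Those most like Ldhb were AC149090.1, Cirbp, Pcgf5, Aig1 and Gm19590 (0.91 each).

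The wider pathway was read from 10 lists over all cells, at the same threshold and against the same backgrounds of 21.2% higher and 20.4% lower. Fewer of these calls were met within classes, where calls over all genes were rarer too. Over all genes compared, 8.92% were higher and 9.44% lower in HSC-like cells, and 9.76% and 11.7% in lymphoid-primed cells. The same shares were 9.52% and 15.7% in megakaryocyte-primed cells, and 12.3% and 7.07% in neutrophil-primed cells. How many of all genes kept their call was not computed, so the loss is not shown to be particular to these lists. Of the 26 list genes past the threshold over all cells, 6 passed it in the same direction in HSC-like, 7 in lymphoid-primed, 7 in megakaryocyte-primed and 10 in neutrophil-primed cells. In no named class did 10 of the 26 pass, and 1, Ndrg1, passed in all 4. Of 5 other glycolytic isozymes compared, 3 were higher and 0 lower: Hk3, the hexokinase of myeloid cells, at 47.8 CPM in irradiated and 19.1 CPM in control cells (log2 1.32), Pfkp, a phosphofructokinase gene, at 0.84 and Hk1 at 0.36. Pfkl had the lowest ratio, -0.11. Of 9 genes of glucose and lactate transport 2 were compared, neither of them a glucose transporter gene. Both were higher: Slc16a1, the monocarboxylate transporter that carries lactate (log2 0.96), and its chaperone Bsg (0.37). Slc16a1 stood at 32.7 CPM in irradiated and 16.8 CPM in control cells. Within HSC-like cells the Slc16a1 ratio was -0.76, against 0.26 in lymphoid-primed, 0.06 in megakaryocyte-primed and 0.70 in neutrophil-primed cells. For list genes, here and below, the 20 CPM filter was applied over all cells only and not within a class. Their class ratios carry no intervals, so those from few UMIs are uncertain. The glucose transporter gene Slc2a3 was just under the level filter, at 13.3 CPM in irradiated and 26.6 CPM in control cells, and was singled out after its values were seen. Its ratio within classes was -0.10 in HSC-like, -0.06 in lymphoid-primed, 0.06 in megakaryocyte-primed and -0.45 in neutrophil-primed cells.

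Of 7 pentose phosphate genes 6 were higher and 0 lower, from Pgd (0.76) and Rpe (0.60) down to Tkt (0.35), with Pgls at 0.27. Of those 6, G6pdx, Rpia and Tkt passed in no named class, and Rpia stood at -0.55 in HSC-like cells. Of 6 serine synthesis genes 4 were higher, among them Mthfd2, a mitochondrial folate enzyme (0.84), and Psat1, an aminotransferase (0.56). Of 8 genes of pyruvate entry into mitochondria 2 were higher, Dlat (0.53) and Mpc1 (0.33), and 1 was lower. That gene was Pdk1, the kinase that shuts pyruvate dehydrogenase, at 28.3 CPM in irradiated and 40.4 CPM in control cells (-0.51). Of 8 shuttle genes 3 were higher, Got2 (0.65), Mdh2 (0.59) and Got1 (0.49), with Gpd2 lowest at -0.26.

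Of 4 genes of glycogen and gluconeogenesis 1 was higher, Pgm1 (0.38), and of 5 genes that set fructose 2,6-bisphosphate 0 met the level filter. Of 3 hypoxia factors and regulators 0 passed the threshold in either direction, with Hif1a at 26.4 CPM in irradiated and 31.5 CPM in control cells (-0.25). Of 12 hypoxia targets outside glycolysis 4 met the level filter, and these split evenly. Under the filter, Ddit4 and P4ha2 (-0.97 each), Ankrd37 (-0.59), Kdm3a (-0.46), Vegfa (-0.44), Bnip3 (-0.39) and P4ha1 (-0.19) lay below 0 over all cells. Adm lay above 0, from 4 irradiated and 1 control UMIs. Within classes some turned, with Vegfa at 0.64 in HSC-like and 0.60 in neutrophil-primed cells. Ndrg1 stood at 16.7 CPM in irradiated and 44.0 CPM in control cells (-1.40), and the mitophagy receptor gene Bnip3l was lower too (-0.38). Mif, a cytokine gene, stood at 1185 CPM in irradiated and 802 CPM in control cells (0.56), and Higd1a was higher too (0.39). Within classes Higd1a lay between 0.01 and 0.10 and Bnip3l between -0.25 and 0.12, so neither passed there, and Mif passed in neutrophil-primed cells alone (0.34). Ndrg1 stood at -1.22 in HSC-like, -1.01 in lymphoid-primed, -0.999 in megakaryocyte-primed and -0.49 in neutrophil-primed cells.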

How the data were processed

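The authors deposited raw UMI counts, whole numbers per gene and barcode, for 1 irradiated and 1 control library. The submitters' processing notes name Cell Ranger 2.1.1 and mm10. Per the file headers, the matrices were written by software version 3.1.0. Strand and multimapping settings were not given in the sources used here. Barcodes were kept with at least 1000 UMIs, 500 genes and at most 10% mitochondrial UMIs. Removed were 468 of 5596 irradiated and 496 of 7686 control barcodes. Scrublet then marked 16 irradiated and 1 control cell (0.312% and 0.0139%), far below the expected 6%, so this doublet removal has not worked. Kept UMIs were 162741683 irradiated and 138113621 control.

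UMIs were summed per library and class and divided by the total (CPM). Log2 ratios carry exact conditional Clopper-Pearson 95% intervals (scipy 1.17.1), which cover counting error only. Intervals with the class mix held are instead normal approximations, 1.96 counting standard errors each way. A 3′ UMI counts a transcript once whatever its length. Genes averaging 20 CPM or more over the libraries were compared by ratio, 2-fold and a log2 ratio of 0.32, with no test. Clusters (scanpy 1.11.5, Leiden resolution 1, leidenalg 0.10.2, 30 components, 15 neighbours from each library) used 2000 variable genes without the enzymes, pathway lists, cell cycle, ribosomal, mitochondrial and sex-linked genes. A cluster was named where at least 3 markers of a list stood among its top 25 genes and no other list had more in the top 10. This rule was set with the data in view, and a name from markers may differ from the study's own. For the fixed mix, the CPM of each class was averaged over control class shares in 15 strata, with 11 control cells left out. Named genes were all 10 members, and from each list up to 2 with the highest and 2 with the lowest ratio, plus every gene past 0.32 where a list held at most 4. Likeness named the 5 genes of highest Pearson r. Members and lists were chosen with earlier results of these data known. The exact interval method was tested on simulated data. Alternatives changed cell filters, weights, thinning, scaling and clustering.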

Additional observations from a re-analysis of the deposited data

Results flagged for a closer look

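The ratios of 3 enzymes pointed down in megakaryocyte-primed cells and up in another class, with intervals on opposite sides of 0. With 1 library per group the differences between classes were not tested. Pgam1 had a log2 ratio of irradiated over control of -0.27 in megakaryocyte-primed and 0.38 in lymphoid-primed cells, a difference of -0.66. Pkm had -0.18 in megakaryocyte-primed and 0.37 in neutrophil-primed cells, a difference of -0.56. Tpi1 had -0.23 in megakaryocyte-primed and 0.25 in neutrophil-primed cells, a difference of -0.48. In bins of cell depth some of these intervals included 0. Pgam1 in lymphoid-primed cells of 10000 to 20000 UMIs was at 0.12 (-0.03 to 0.28), and Tpi1 in neutrophil-primed cells of 20000 to 30000 UMIs at -0.01 (-0.16 to 0.13).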

How the results depend on the processing

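No paired analysis was possible because each group holds 1 library, and no library could be left out for the same reason. Over all cells the counts of 1 member lower and 6 members higher were the same under all 8 alternatives, and no member turned direction under them. Fixing depth bins, chosen after seeing the data, gave -0.02 for Pkm and -0.04 for Tpi1, and fixing class and depth together gave -0.07 for Tpi1, where the ratios over all cells were 0.30 for Pkm and 0.29 for Tpi1. The summed log2 ratio of 0.53 was 0.49 at a limit of 5% mitochondrial UMIs, 0.50 with each cell weighted equally, 0.49 in cells thinned to 5000 UMIs, 0.51 with median-of-ratios scaling and 0.47 with a total without mitochondrial and ribosomal protein genes. It was 0.17 with depth bins fixed, an alternative chosen after seeing the data. The Ldhb ratio of -2.46 was -2.35 at the 5% limit and -1.91 with depth bins fixed.

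With the class mix fixed, the summed ratio of 0.22 was 0.24 for all deposited barcodes, 0.21 at the 5% limit, 0.21 thinned, 0.20 with median-of-ratios scaling and 0.20 without mitochondrial and ribosomal protein genes. Changes to the clustering gave 0.24 at resolution 0.5, 0.080 with 30 neighbours over all cells, 0.26 without marker genes and 0.30 with each cell named by its own markers. Class and depth fixed together gave 0.14, also chosen after seeing the data. The Ldhb ratio with the class mix fixed, -1.54, was -1.24 with 30 neighbours and -1.85 with each cell named by its own markers.

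The Ldhb share of lactate dehydrogenase UMIs was lower by 10.1 percentage points (written -10.1) in irradiated cells. This difference was -8.77 at the 5% limit, -13.5 with equal weights and -13.5 thinned. With a level filter of 5 CPM in place of 20, the genes past 2-fold numbered 561 in place of 183, and those past a log2 ratio of 0.32 numbered 4103 in place of 2181. The cause of each shift was not tested. Low Ldhb counts limit the precision in single classes, with 12 UMIs in irradiated erythroid-primed cells.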
